A study of Mus musculus with 8 samples.

Results

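The transcripts described here are 7 proteins of neutrophil granules and 3 stefins, chosen by gene name: Mmp8, Mmp9, Ngp, Camp, Ltf, Elane, Mpo, Stfa1, Stfa2 and Stfa2l1. All 10 names were present among the 39290 gene names of the deposited table, each on 1 row except Mpo, which had 2 rows that were summed. The libraries were 4 titled high dose and 4 titled model, from mice of a study on Platycodin D, a saponin of Platycodon root, in idiopathic pulmonary fibrosis, in which lung tissue is replaced by scar. Every library carried the labels lung tissue, the cell line name MLF and mouse lung fibroblasts. The sources used here did not give strain, age, sex, genotype, dose, the way fibrosis was induced or a group left untreated. The library codes in the labels bear initials that would fit the opposite assignment of titles, so every direction below would turn if the titles were exchanged. Whether each library stands for its own animal was not stated, so the p-values measure a spread between libraries that may be technical.

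Neutrophils are short-lived white blood cells that carry ready-made antimicrobial proteins in granules. As the cells mature in the bone marrow, azurophil granules are filled first, with enzymes such as myeloperoxidase and neutrophil elastase, then specific granules, with lactoferrin and cathelicidin, and last gelatinase granules, rich in MMP9. Transcripts of the azurophil enzymes are largely lost before the cells enter the blood, whereas several later transcripts persist. Stefins are small inhibitors of cysteine cathepsins that act inside the cell, and the mouse has a cluster of stefin A genes that are abundant in myeloid cells.

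The 3 stefin genes lie together on chromosome 16, and the 250 bases before their annotated starts are shown because the genes moved together and their windows are alike. The sequences are from RefSeq on GRCm38.p6, written along the direction of transcription. Capitals mark a 21-base run that all 3 windows share.
Stfa1, chr16:36276898-36277147, plus strand: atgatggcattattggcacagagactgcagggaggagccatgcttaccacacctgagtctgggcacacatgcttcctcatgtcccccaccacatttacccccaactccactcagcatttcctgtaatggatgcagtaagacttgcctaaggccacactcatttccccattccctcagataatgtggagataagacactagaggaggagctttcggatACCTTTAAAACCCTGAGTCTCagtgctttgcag
Stfa2, chr16:36408364-36408613, minus strand: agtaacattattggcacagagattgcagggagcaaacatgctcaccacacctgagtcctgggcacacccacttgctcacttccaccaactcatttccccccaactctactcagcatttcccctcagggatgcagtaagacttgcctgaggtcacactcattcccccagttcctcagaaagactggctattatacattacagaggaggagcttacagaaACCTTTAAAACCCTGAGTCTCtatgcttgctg
Stfa2l1, chr16:36156561-36156810, plus strand: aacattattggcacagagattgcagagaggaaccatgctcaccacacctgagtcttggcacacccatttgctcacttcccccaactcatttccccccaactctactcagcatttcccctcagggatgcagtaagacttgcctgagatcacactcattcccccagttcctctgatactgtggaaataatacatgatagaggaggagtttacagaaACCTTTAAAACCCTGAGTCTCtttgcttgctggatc
The run was picked as the longest that these 3 windows share, so its presence in all 3 was set in advance. Among 32536 mouse windows, with windows of identical sequence counted once, it was found in no others. Stfa2 and Stfa2l1 were 89.4% identical over the window, Stfa1 and Stfa2 80.6%, and Stfa1 and Stfa2l1 80.4%. The other 33 pairs among the 9 members with a window were 41.9% to 50.9% identical. The stefin transcripts also share sequence: 26.9% of the 50-base stretches of Stfa1, 15.9% of those of Stfa2 and 24.6% of those of Stfa2l1 occur in the transcript of another gene, against 0 for the other 7 members. How the authors' counting assigned fragments in those stretches was not given in the sources used here, so the values of single stefins are uncertain to that extent.

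Windows of 3 granule genes are shown as examples of a metalloproteinase that fell, of Ltf, which did not fall, and of an azurophil enzyme. Capitals mark matches, on either strand, to GAGGAA (a core bound by PU.1, a factor of myeloid cells), ATTGC (part of the site of C/EBP factors, which act in granule gene transcription) and TATAA.
Mmp8, chr9:7558179-7558428, plus strand: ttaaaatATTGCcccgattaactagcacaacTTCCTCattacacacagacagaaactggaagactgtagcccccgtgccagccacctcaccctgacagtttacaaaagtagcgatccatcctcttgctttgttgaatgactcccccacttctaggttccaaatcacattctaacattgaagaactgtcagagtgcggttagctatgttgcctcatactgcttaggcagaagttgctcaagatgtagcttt
Ltf, chr9:111019042-111019291, plus strand: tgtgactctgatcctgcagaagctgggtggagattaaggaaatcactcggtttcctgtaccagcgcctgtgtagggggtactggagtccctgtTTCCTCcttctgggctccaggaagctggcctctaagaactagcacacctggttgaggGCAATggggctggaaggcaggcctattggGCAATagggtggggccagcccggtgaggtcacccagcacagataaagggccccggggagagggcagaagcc
Elane, chr10:79886062-79886311, plus strand: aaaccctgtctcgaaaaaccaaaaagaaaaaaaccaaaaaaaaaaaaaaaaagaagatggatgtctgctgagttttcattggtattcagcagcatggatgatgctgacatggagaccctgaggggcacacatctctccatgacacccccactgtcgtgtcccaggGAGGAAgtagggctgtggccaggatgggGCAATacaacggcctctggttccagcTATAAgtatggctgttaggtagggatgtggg
In Elane the capitals are GAGGAA at 85 to 80 bases before the start, ATTGC on the reverse strand at 57 to 53 bases and TATAA at 31 to 27 bases. GAGGAA was present in 7 of 9 member windows, against 23.4% of 32536 windows. ATTGC was present in 8 of 9, against 22.8%, and TATAA in 2 of 9, against 22.7%. The windows with GAGGAA include those of all 3 stefins, and the windows with ATTGC include those of Stfa2 and Stfa2l1. Since the stefin windows are alike, their matches are not independent of one another. The 3 motifs did not overlap one another in these windows. Such matches describe letters, not binding. The Ltf window held the same pair of myeloid motifs as the Mmp8 window.

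The file held FPKM values, which scale fragments by feature length and library depth, and no counts, which left the read numbers unknown. Depth relative to model replicate 1, read from low FPKM values, was 1.09 to 1.34 in the high dose libraries and 1.00 to 1.18 in the model libraries. Sftpc, which encodes surfactant protein C of the alveolar epithelium, averaged 13300 ± 2460 FPKM in high dose and 10199 ± 1944 FPKM in model libraries (SD, n = 4 each), and fibroblasts are not known to make it. A pair of libraries stood apart. Model replicate 4 had a summed level of 1637 FPKM for 8 squamous epithelial markers, against 6.66 to 44.8 FPKM in the 4 high dose libraries and 1.39 to 4.68 FPKM in the other 3 model libraries. High dose replicate 2 had 30404 FPKM of red cell transcripts, against 7233 to 12921 FPKM in the other 3 high dose libraries and 4662 to 12825 FPKM in the model libraries.

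Of the 10 transcripts, 7 were lower in high dose than in model libraries, none was higher at the threshold, and 3 did not pass it. Mmp8, Mmp9, Ngp, Elane, Stfa1, Stfa2 and Stfa2l1 fell, with mean levels between 2.15% and 30.6% of the model mean. Ltf went the other way in its mean, at 73.4 FPKM in high dose and 18.9 FPKM in model libraries, without passing. In limma on log2(FPKM + 1), adjusted over 14418 genes, 7 of 9 members tested were called lower and 0 higher, against 4.27% lower and 5.86% higher among all genes tested (10.1% in either direction). All 9 had an unadjusted p under 0.05, of which 1, Ltf, was higher. The share of all genes at that unadjusted threshold was not taken, so this count has no background beside it. The groups did not overlap in 7 of the 9, each lower in high dose, against 6.46% of all genes tested. None was higher without overlap, against 11.3%. The filter of a mean of at least 1 FPKM kept Mpo out, and it let Elane, Stfa1 and Stfa2 in through their model libraries, since their high dose means were under 1 FPKM. With no filter, all 10 members could be tested and 6 were called lower and 0 higher, against 1.47% and 1.74% of 29739 genes. In these bulk libraries, fewer neutrophils and less RNA per neutrophil cannot be told apart.

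**Figure D1:**
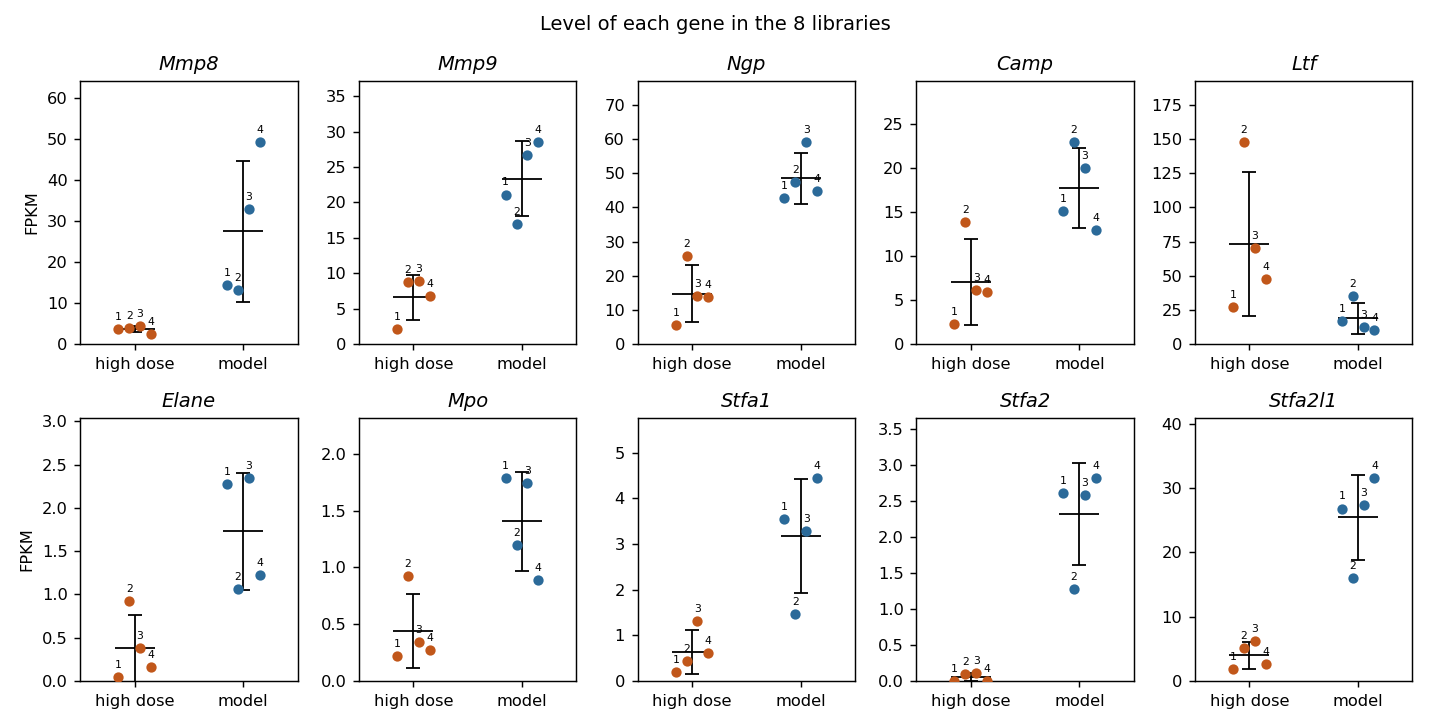
FPKM of each of the 10 members in the 4 high dose (left) and 4 model (right) libraries, on a linear axis that starts at 0. Digits are replicate numbers and black bars are the mean ± SD. The groups do not overlap for Mmp8, Mmp9, Ngp, Elane, Stfa1, Stfa2 and Stfa2l1, and Ltf reaches 148 FPKM in high dose replicate 2.

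The metalloproteinases degrade extracellular matrix: MMP8 is a collagenase that cuts fibrillar collagens, and MMP9 is a gelatinase. Mmp8 had 3.80, 4.02, 4.38 and 2.60 FPKM in high dose libraries 1 to 4, against 14.4, 13.3, 33.1 and 49.4 FPKM in model libraries 1 to 4. All high dose values lay below all model values, and model replicates 3 and 4 were well above model replicates 1 and 2. The log2 change was -2.42 ± 0.40 (SE, n = 4 each, adjusted p = 0.0101), and it held in all 19 alternative fits. Mmp9 had 2.13, 8.77, 8.90 and 6.78 FPKM in high dose libraries, against 21.1, 17.0, 26.7 and 28.6 FPKM in model libraries. The groups were apart, with high dose replicate 1 lowest. The log2 change was -1.78 ± 0.37 (adjusted p = 0.0215), and the call was lost when model replicate 1, 3 or 4 was left out, with adjusted p up to 0.0676. The sum of both transcripts was 10.3 ± 3.42 FPKM in high dose and 50.9 ± 22.1 FPKM in model libraries, and the groups did not overlap.

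Ngp, Camp and Ltf encode proteins of specific granules, and they did not behave alike. Ngp, neutrophilic granule protein, belongs to the cystatin and cathelicidin superfamily. It had 5.49, 25.8, 14.2 and 13.7 FPKM in high dose libraries, against 42.7, 47.3, 59.2 and 44.7 FPKM in model libraries. All high dose values lay below all model values, with high dose replicate 1 lowest and replicate 2 highest in their group. Its log2 change was -1.80 ± 0.37 (adjusted p = 0.0217), and the adjusted p lay between 0.0505 and 0.0688 when high dose replicate 3 or 4 or model replicate 1 or 3 was left out.

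Camp encodes the precursor of the mouse cathelicidin peptide CRAMP, which kills bacteria. It had 2.26, 13.9, 6.19 and 5.96 FPKM in high dose libraries, against 15.2, 23.0, 19.97 and 12.9 FPKM in model libraries. High dose replicate 2 was higher than model replicate 4, so the groups overlapped. The log2 change of -1.39 ± 0.41 did not pass (adjusted p = 0.0727), and it did pass without high dose replicate 2 (-1.75, adjusted p = 0.0228), the library with the most red cell transcripts.

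Ltf encodes lactoferrin, an iron-binding protein of specific granules that glandular and airway epithelia also secrete. It had 27.2, 148, 70.6 and 47.7 FPKM in high dose libraries, against 17.3, 35.4, 12.3 and 10.7 FPKM in model libraries. Of the high dose libraries, only replicate 1 lay within the range of the model libraries, below model replicate 2. Its log2 change was 1.79 ± 0.53 and did not pass (adjusted p = 0.0729). It passed without high dose replicate 1 (2.17, adjusted p = 0.0497) or without model replicate 2 (2.13, adjusted p = 0.0456), and was 1.36 with an adjusted p of 0.120 without high dose replicate 2.

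Within libraries, the balance of the specific granule transcripts differed. Ltf FPKM was 12.0, 10.7, 11.4 and 8.00 times that of Camp in high dose libraries, against 1.14, 1.54, 0.616 and 0.824 times in model libraries. The ratios of the groups were far apart, whereas Camp itself and Ltf itself overlapped between groups. The ratio of Ltf to Ngp was 4.78 ± 0.946 in high dose and 0.400 ± 0.248 in model libraries, also without overlap. The ratio of Ngp to Camp was 2.22 ± 0.248 in high dose and 2.82 ± 0.579 in model libraries, with overlap. These ratios were chosen after the values were seen and were not tested.

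**Figure D2:**
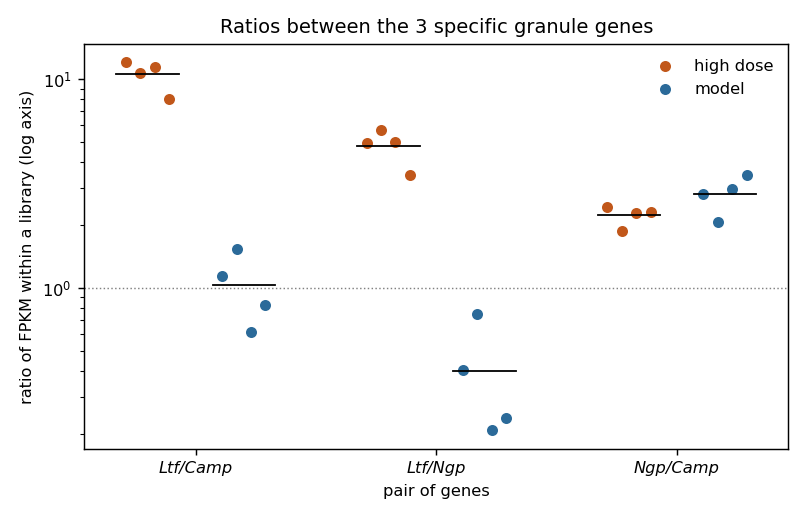
Ratio of FPKM between pairs of members within each library, on a log axis, for 4 high dose (left) and 4 model (right) libraries, with black bars at the mean. Ltf over Camp and Ltf over Ngp are apart between the groups, while the other ratios overlap.

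Elane and Mpo encode azurophil enzymes, a serine protease and a heme enzyme that makes hypochlorous acid. Both had means under 2 FPKM in either group. Elane had 0.0464, 0.921, 0.381 and 0.161 FPKM in high dose libraries, against 2.28, 1.07, 2.34 and 1.23 FPKM in model libraries. The groups did not overlap, with high dose replicate 2 close below model replicate 2. The log2 change of -0.99 ± 0.24 passed (adjusted p = 0.0312), but not with a pseudocount of 0.01 (-2.75, adjusted p = 0.0602), with no filter (adjusted p = 0.0610) or without high dose replicate 1, 3 or 4 (adjusted p up to 0.0849), and Elane was under the filter without model replicate 1 or 3.

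Mpo had 0.223, 0.920, 0.344 and 0.269 FPKM in high dose libraries, against 1.78, 1.20, 1.74 and 0.891 FPKM in model libraries. High dose replicate 2 lay just above model replicate 4, so the groups overlapped by this pair. Its mean over the 8 libraries, 0.922 FPKM, was under the filter. In the fit with no filter the log2 change was -0.75 ± 0.18 and did not pass (adjusted p = 0.0683), whereas it passed without high dose replicate 2 (-0.89, adjusted p = 0.0423).

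The stefins fell together. Stfa2l1, stefin A2 like 1, was the most abundant of the 3, with 1.88, 5.16, 6.24 and 2.60 FPKM in high dose libraries, against 26.8, 16.1, 27.3 and 31.5 FPKM in model libraries. The groups were far apart. Its log2 change was -2.47 ± 0.32 (adjusted p = 0.00458), and it held in all 19 alternative fits. Stfa1 had 0.187, 0.431, 1.30 and 0.607 FPKM in high dose libraries, against 3.55, 1.46, 3.29 and 4.44 FPKM in model libraries. The highest high dose value was close below the lowest model value. The log2 change was -1.34 ± 0.28 (adjusted p = 0.0196), and it was lost on leaving out any of high dose replicates 1, 2 and 4 and model replicates 1 and 3 (adjusted p up to 0.0582).

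Stfa2 was listed at 0 in high dose replicates 1 and 4 and had 0.0947 and 0.104 FPKM in high dose replicates 2 and 3, against 2.61, 1.27, 2.58 and 2.81 FPKM in model libraries. Multiplied by relative depth, both values above 0 came to 0.126. The log2 change was -1.63 ± 0.17 (adjusted p = 0.00296), and it held in all 15 alternative fits that tested it, at -6.07 with a pseudocount of 0.01. It was under the filter, and so not tested, without model replicate 1, 3 or 4. The summed stefin level was 4.65 ± 2.51 FPKM in high dose and 30.9 ± 8.50 FPKM in model libraries, without overlap. Stfa2l1 was 7.77 ± 3.83 times as high as Stfa1 in high dose and 8.48 ± 1.74 times in model libraries, and these ratios overlapped.

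**Figure D3:**
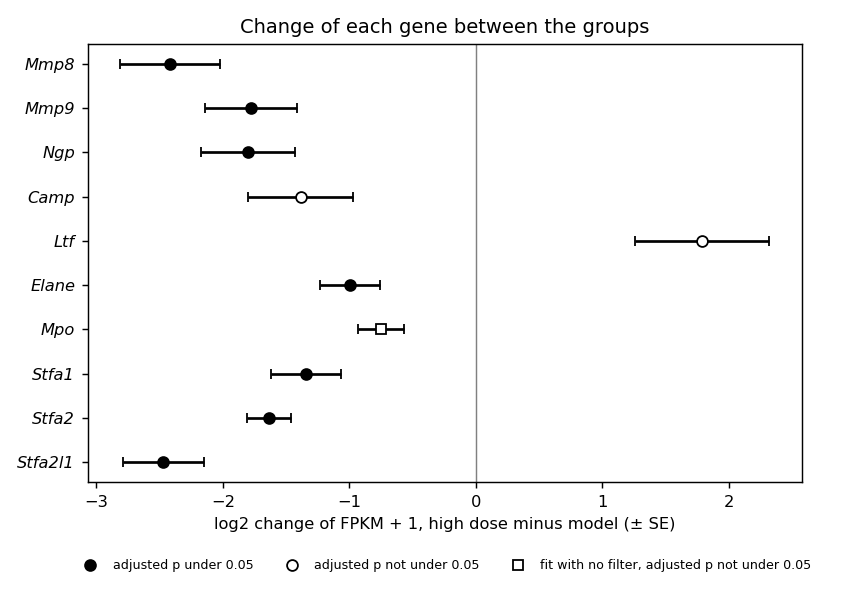
Difference of mean log2(FPKM + 1) between high dose and model libraries for each member, positive where high dose is higher, with bars for the SE. Filled points passed an adjusted p of 0.05, open points did not, and the square is Mpo from the fit with no filter. The 7 filled points lie between -2.47 and -0.99, and Ltf lies at 1.79.

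FPKM is scaled by length, which allows levels to be ranked across genes. In high dose libraries the order of mean FPKM was Ltf, Ngp, Camp, Mmp9, Stfa2l1, Mmp8, Stfa1, Mpo, Elane and Stfa2. The ranges of neighbours overlapped except between Ltf and Ngp and between Mmp8 and Stfa1. In model libraries the order was Ngp, Mmp8, Stfa2l1, Mmp9, Ltf, Camp, Stfa1, Stfa2, Elane and Mpo. Among neighbours there, only the ranges of Camp and Stfa1 did not overlap. Ltf thus stood at the top in high dose libraries and at rank 5 in model libraries. Its range there, 10.7 to 35.4 FPKM, lay below that of Ngp, 42.7 to 59.2 FPKM.

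The share of Ltf in the summed FPKM of the 10 members was 59.3% to 71.1% in high dose libraries and 5.70% to 22.6% in model libraries. With Ltf the summed level was 111 ± 70.6 FPKM in high dose and 170.0 ± 20.8 FPKM in model libraries, and the groups overlapped. Without Ltf it was 37.7 ± 18.4 FPKM in high dose and 151 ± 29.2 FPKM in model libraries, with no overlap. The summed level of Ngp, Camp and Ltf was 95.3 ± 65.8 FPKM in high dose and 85.1 ± 16.8 FPKM in model libraries, with overlap.

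Members did not vary together in every library. Among high dose libraries, replicate 2 was highest for Ngp, Camp, Ltf, Elane and Mpo, and replicate 3 was highest for Mmp8, Mmp9 and the 3 stefins. Replicate 1 was lowest for 9 of 10 members, with Stfa2 tied at 0 with replicate 4, and Mmp8 was lowest in replicate 4. Among model libraries, replicate 4 was highest for Mmp8, Mmp9 and the 3 stefins and lowest for Camp, Ltf and Mpo. Model replicate 2 was highest for Camp and Ltf and lowest for Mmp8, Mmp9, Elane and the 3 stefins. In both groups, then, the metalloproteinases and stefins peaked in 1 library, while Camp and Ltf peaked in another.

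**Figure D4:**
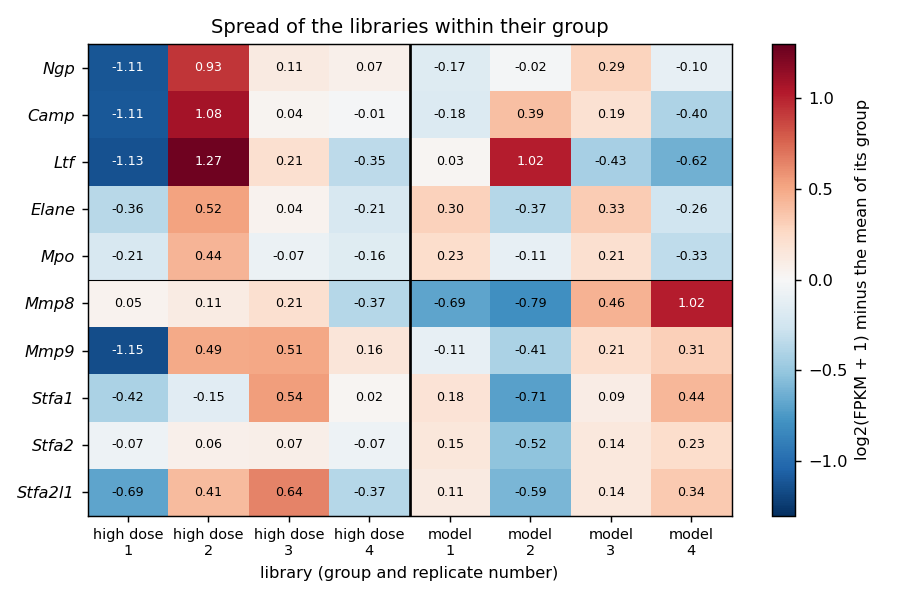
Heat map of log2(FPKM + 1) minus the mean of its own group, for each member (rows) in 4 high dose (left) and 4 model (right) libraries. High dose replicate 1 is below its group mean for most members, and model replicate 4 is above it for Mmp8, Mmp9 and the stefins and below it for Camp and Ltf.

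The libraries that stood apart take part in these patterns. Model replicate 4, with the squamous markers Krt13 at 840 FPKM and Krt4 at 512 FPKM, was the highest for the metalloproteinases and stefins. The summed level of 12 markers of mature neutrophils was also highest there among model libraries, at 2837 FPKM. It was 1328, 1110 and 1659 FPKM in model replicates 1 to 3. In high dose libraries that sum was highest in replicate 2, at 518 FPKM. With model replicate 4 left out, 5 members were called lower, Mmp8, Ngp, Elane, Stfa1 and Stfa2l1. Mmp9 was not (adjusted p = 0.0538), and Stfa2 was not tested, since its mean over the remaining libraries was under the filter. None of the 7 squamous markers tested passed in either direction. High dose replicate 2, with the highest red cell sum, was highest for the 3 specific granule transcripts and the azurophil enzymes. In model libraries the red cell sum was also highest in replicate 2, at 12825 FPKM, and lowest in replicate 4, at 4662 FPKM, as were Camp and Ltf. The part of blood, squamous epithelium or neutrophil number in these differences was not tested. With both libraries removed, 6 members were called lower and 0 higher: Mmp9 (adjusted p = 0.0650) and Stfa1 (adjusted p = 0.0982) no longer passed, and Camp did (-1.88, adjusted p = 0.0305).

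Receptor transcripts of neutrophils were lower as well. Csf3r, the receptor of the growth factor G-CSF, had 12.6, 25.4, 24.0 and 17.3 FPKM in high dose libraries, against 105, 52.4, 83.5 and 119 FPKM in model libraries. The groups did not overlap, and the log2 change was -2.11 ± 0.29 (adjusted p = 0.00538). Cxcr2, a chemokine receptor, had a log2 change of -2.33 (adjusted p = 0.00404), and the calprotectin subunits S100a8 and S100a9 had -2.52 (adjusted p = 0.0106) and -2.67 (adjusted p = 0.0145). The innate receptors Trem1 (-1.55, adjusted p = 0.00987) and Clec4d (-1.53, adjusted p = 0.00952) fell too. Of 12 markers of mature neutrophils 10 fell and 0 rose, with a median log2 change of -1.94, against 0.04 for all genes tested. Their summed level was 150.4 to 518 FPKM in high dose and 1110 to 2837 FPKM in model libraries.

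Set against Csf3r in the same library, the members fall into different groups. The log2 ratio of Ltf to Csf3r, with 1 FPKM added to each, was 1.62 ± 0.62 in high dose and -2.28 ± 1.21 in model libraries, and the groups did not overlap. For Mmp8, Mmp9, Ngp, Camp and Stfa2l1 the mean log2 ratio differed between high dose and model by -0.35 to 0.73, and the groups overlapped. The same ratio was also higher without overlap for Elane, Mpo and Stfa1. With 0.1 FPKM added in place of 1, the count of members without overlap was 2 rather than 4 of 10. Those 2 were Ltf, again higher, and Stfa2, which was lower in high dose and overlapped with 1 FPKM added. The ratios of the low transcripts Elane, Mpo, Stfa1 and Stfa2 thus depend on the added value. With 0.1 FPKM added, the difference in mean log2 ratio was -0.06 for Elane, -0.13 for Stfa1 and -1.87 for Stfa2. These differences were 1.12, 0.77 and 0.48 with 1 FPKM added. With S100a9 in place of Csf3r, the difference was 0.25 for Mmp8 and 0.20 for Stfa2l1, against -0.30 and -0.35 with Csf3r, so the direction for these members depends on the transcript they are set against. The difference for Ltf was 3.90 with Csf3r, 4.12 with Cxcr2 and 4.46 with S100a9. These ratios were not tested, and the share of all genes without overlap against Csf3r was not taken. Csf3r itself was lower without overlap, so a transcript with no change would also be higher against it.

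**Figure D5:**
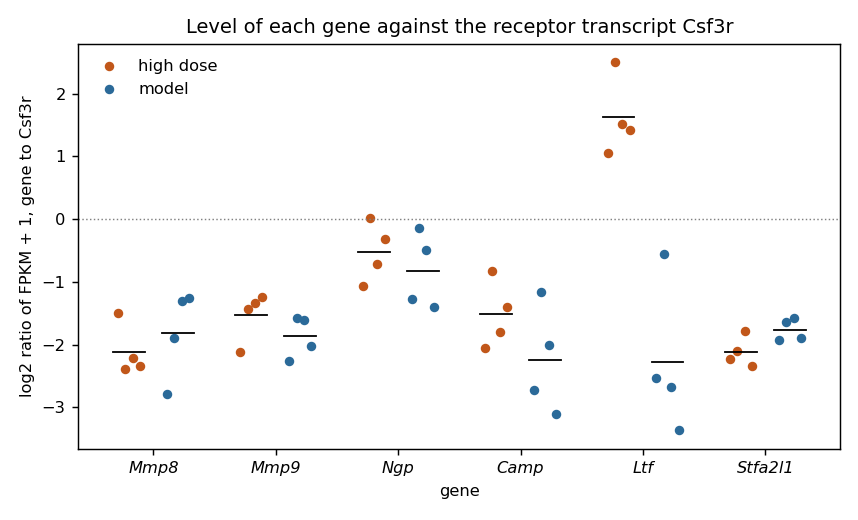
Log2 ratio of each member to Csf3r within a library, with 1 FPKM added to both, for the 6 members with a mean of at least 1 FPKM in both groups, in 4 high dose (left) and 4 model (right) libraries, with black bars at the mean. The Ltf ratios are above 1 in high dose and below 0 in model libraries, and the ratios of Mmp8, Mmp9, Ngp, Camp and Stfa2l1 overlap.

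Granule genes were also counted by list, and the lists include members themselves. There are 2 members in the azurophil list, 4 in the specific granule list, 1 in the gelatinase granule list and 3 in the stefin list. The counts and medians thus partly restate the member results. Of all genes tested, 4.27% were called lower and 5.86% higher. Of 5 tested azurophil genes, 2 fell, Elane and Prtn3, the serine protease proteinase 3, and Cd63, a membrane protein that many cells carry in late endosomes, rose. Prtn3 had 1.10, 1.80, 1.55 and 1.12 FPKM in high dose libraries, against 5.78, 3.40, 6.48 and 7.44 FPKM in model libraries. The groups were clearly separate (log2 change -1.47 ± 0.20, adjusted p = 0.00502). The median of the 5 tested azurophil genes was 0.17, and it leaves out 4 of the 9 listed, which were under the filter. Of these, Mpo, Ctsg and Prss57 had high dose means at 31.3%, 27.0% and 32.7% of their model means. Bpi was 0 in all high dose libraries and averaged 0.00584 FPKM in model libraries.

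Of 9 tested specific granule genes, Ngp and Mmp8 fell and Lcn2 and Cd177 rose, with a list median of -0.49. Lcn2 encodes lipocalin 2, which binds bacterial siderophores and is also made by epithelium. It had 489, 235, 441 and 286 FPKM in high dose libraries, against 117, 115, 173 and 156 FPKM in model libraries. All high dose libraries lay above all model libraries (log2 change 1.33 ± 0.25, adjusted p = 0.0147). Cd177, a surface protein of neutrophils, had 16.9, 39.8, 8.53 and 34.2 FPKM in high dose libraries, against 5.03, 6.94, 6.53 and 6.13 FPKM in model libraries. Its groups were apart too, with high dose replicate 3 close to the model libraries (log2 change 1.64 ± 0.42, adjusted p = 0.0434). Lcn2 and Cd177 thus had the sign of Ltf, while Ltf itself did not pass.

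Of 8 tested genes of gelatinase granules and secretory vesicles, 4 fell and 0 rose, with a median of -0.65: Mmp9, the integrin chain Itgam (-1.24, adjusted p = 0.0187) and the formyl peptide receptors Fpr1 (-0.98, adjusted p = 0.0302) and Fpr2 (-2.31, adjusted p = 0.00296). Of 6 tested genes of the stefin and cystatin A cluster, 5 fell and 0 rose, with a median of -1.59. Cstdc4, a stefin-like gene of the cluster, had 0.513, 1.29, 2.86 and 1.59 FPKM in high dose libraries, against 11.3, 11.5, 21.6 and 26.6 FPKM in model libraries. Its high dose values were all below 3 FPKM and its model values all above 11 FPKM (log2 change -2.86 ± 0.35, adjusted p = 0.00404). Cstdc5 had 0, 0, 0.1002 and 0 FPKM in high dose libraries, against 2.49, 0.527, 2.30 and 3.53 FPKM in model libraries (log2 change -1.54 ± 0.29, adjusted p = 0.015004). Among model libraries replicate 2 was lowest and replicate 4 highest in Stfa1, Stfa2, Stfa2l1 and Cstdc5. The same held for Mmp8, Mmp9 and the neutrophil transcripts Csf3r, Cxcr2, S100a8 and S100a9, so it was not particular to the cluster. In Cstdc4 replicate 4 was also highest, but replicate 1 was lowest, at 11.3 FPKM against 11.5 FPKM in replicate 2.

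Genes that act on or with these proteins, or regulate them, were counted by list. Among all genes tested 10.1% were called in either direction, so 1 call in a list of 6 to 9 genes is little more than that share. Of 8 tested inhibitors of granule proteases 1 rose, Timp2, a metalloproteinase inhibitor (0.51, adjusted p = 0.0220). Of 6 cysteine cathepsins, the class of enzymes that stefins inhibit, 1 rose, Ctsk, a collagen-degrading cathepsin (1.74, adjusted p = 0.00868). Of 9 tested transcription factors of granulocyte formation 1 fell, Spi1, which encodes PU.1 (-0.81, adjusted p = 0.0475), with overlap between the groups. Of 7 growth factor and chemokine genes, Csf3r and Cxcr2 fell, and the chemokines Cxcl1 (0.73, adjusted p = 0.0281) and Cxcl12 (0.90, adjusted p = 0.0154) rose. Of 9 genes of extracellular trap formation and granule release 1 fell, Padi4, the arginine deiminase that acts on histones (-0.95, adjusted p = 0.01504).

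Markers of other cell types were counted in the same fit, in which 10.1% of all genes tested were called in either direction. Of 9 monocyte markers 5 fell, among them Plac8 (-2.40, adjusted p = 0.0145), Ly6c2 (-1.90, adjusted p = 0.00940) and Treml4 (-1.65, adjusted p = 0.00605), and 1 rose, Fn1, which encodes the matrix protein fibronectin and is also made by fibroblasts (1.39, adjusted p = 0.00884). None of the tested markers of macrophages, T cells, B cells, red cells, lung epithelium, endothelium, fibroblasts or the group of eosinophils, basophils and mast cells passed in either direction. In that last group 1 of 9 markers was tested and 8 were under the filter. All 5 B cell and all 5 fibroblast markers had positive changes, with medians of 0.61 and 0.51. Of 6 tested markers of neutrophil progenitors and cell division 1 fell, Prtn3, and the 5 not called were cell division genes. The other 3 of the 9 listed were under the filter. Their means in high dose and model libraries were 0.284 and 0.613 FPKM for Fcnb and 0.194 and 0.720 FPKM for Ctsg, with overlap. For Ms4a3 they were 0.0376 and 0.550 FPKM, without overlap. Of 5 platelet markers 1 fell, the chemokine precursor Ppbp (-1.17, adjusted p = 0.0398), with overlap between the groups. The part of monocytes in the member transcripts was not tested.

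The 5 genes whose standardised profile over the 8 libraries was nearest to the mean profile of the 9 tested members were Fgfbp1, Gm9733, H2-Q10, Padi4 and Dennd3, at a root mean square distance of 0.234 to 0.284 SD units. All 5 were lower in high dose, by 0.70 to 1.68 on the log2 scale. They are named as a description of likeness over 8 libraries that share the group difference.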

How the data were processed

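The authors deposited 1 table of FPKM values for 8 libraries, 48632 rows with replicates not pooled. Its header names no unit, and FPKM was inferred from the values. Libraries were made with a SMARTER mRNA-Seq kit, per the labels' protocols. Per the submitters' processing notes the genome build was mm39. The sources used here name no aligner or counting tool. Rows without a gene name, 7015 in all, took 50.0% to 65.2% of a library's FPKM sum and were left out.

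Rows of 1 gene name were summed, names were kept if their FPKM averaged at least 1 across all libraries, and log2(FPKM + 1) was fitted with limma 3.58.1 (R 4.3.3, trend and robust settings, group as the only term). Two-sided p-values were adjusted over 14418 genes (Benjamini-Hochberg), with a threshold of 0.05. Changes are high dose minus model, and this scale understates changes of low transcripts. SDs are of FPKM and SEs of the fitted change. Counts could not be recovered, so precision rests on the 4 libraries of each group. The fit was checked on simulated data. Python 3.11.15 and matplotlib 3.10.9 drew the figures.

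The members and gene lists were chosen with earlier results of these data known. Named were all members, up to 4 genes with the smallest p among those that passed in each list, 4 neutrophil transcripts, 3 tissue checks and the 5 genes of nearest profile. Names given as examples of a library's squamous signal were chosen after their values were seen. In the azurophil list and the list of neutrophil progenitors and cell division, all genes under the filter were also named. Alternatives were pseudocounts of 0.1 and 0.01, no filter or a minimum mean of 5 FPKM, median centring, quantile normalization, no trend, rescaling to 1 FPKM sum over named genes, rows not summed, Cxcr2 or S100a9 in place of Csf3r, the replicate number as a block, each library left out in turn and, chosen after seeing the data, both libraries that stood apart removed. RefSeq promoter windows of GRCm38.p6 were matched by symbol for 9 of 10 members, all but Mmp9, and transcripts were compared in the GENCODE M21 annotation. No coordinates of the files' build were used.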

Additional observations from a re-analysis of the deposited data

Results flagged for a closer look

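Stfa2 in model replicate 2 had 1.27 FPKM, apart from the other 3 model libraries, of which the nearest had 2.58 FPKM. The gap divided by the range of the group was 0.851, above Dixon's 95% critical value for 4 samples. With 20 groups of 4 examined, chance would flag about 1 in 20. Model replicate 2 was also the lowest model library for Mmp8, Mmp9, Elane, Stfa1 and Stfa2l1, and the Stfa2 call held without it.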

How the results depend on the processing

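Every one of the members' changes kept its direction under each alternative that could be fitted, and the calls of Mmp8, Stfa2 and Stfa2l1 held in each fit that tested them. The number of members called lower, 7, was 4 with a minimum mean of 5 FPKM, which leaves fewer members to test, and 2 to 7 with 1 library left out: 2 (Mmp8 and Stfa2l1) without model replicate 1 or model replicate 3, where Elane and Stfa2 were under the filter, and 4 without high dose replicate 4. The number called higher, 0, was 0 to 1 with 1 library left out, the 1 being Ltf without high dose replicate 1 or without model replicate 2. For Mpo the change of -0.75 was -0.76 with median centring and then passed (adjusted p = 0.0438), and it was -0.89 to -0.67 with 1 library left out. Of 1461 genes called in the whole table, 956 were called with no filter, 558 with both libraries that stood apart removed, and 693 to 2148 with 1 library left out. The causes were not tested.

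Against Csf3r, 4 members did not overlap between groups, against 2 with a pseudocount of 0.1, 2 with 0.01, 5 with Cxcr2 and 6 with S100a9 in place of Csf3r, and 4 to 5 with 1 library left out. The share of all genes without overlap against these transcripts was not taken, so the counts are not a result about the members.

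Whether replicate numbers pair the samples cannot be settled from so few libraries. Deviations of same-numbered libraries correlated at -0.0923 to 0.276, and 1 of 4 high dose libraries correlated best with its own number. With the replicate number as a block 955 genes were called, 1 member was called higher (Ltf, adjusted p = 0.0347), Camp passed (adjusted p = 0.0456) and Elane did not (adjusted p = 0.0824).

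The number of reads was unknown, and no limit from depth is given for Elane, Mpo and Stfa2, the members of lowest level.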
